A study of Mus musculus with 20 samples.

Results

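Levels of 10 long noncoding RNAs were followed in dendritic cells grown from mouse bone marrow (BMDCs), namely *Malat1* and *Neat1*, which stay in the nucleus, and 8 host genes of small nucleolar RNAs (snoRNAs), *Gas5*, *Snhg1*, *Snhg3*, *Snhg4*, *Snhg5*, *Snhg6*, *Snhg8* and *Snhg12*. They were chosen by gene symbol, 10 of the 24421 genes in the count table, with earlier results of these data known, although the rule itself uses no measured value. All 10 had enough counts to be tested, among 12465 genes that were.

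MALAT1 is an abundant RNA of nuclear speckles, the bodies that store splicing factors, and NEAT1 is the RNA scaffold of paraspeckles, bodies that form around it and hold RNA-binding proteins. SnoRNAs guide chemical modification of ribosomal RNA, those with boxes C and D for methylation and those with boxes H and ACA for pseudouridylation, and most are cut from introns. In a snoRNA host gene the intron therefore carries the functional product, while the spliced exons often code for no protein and are, in *Gas5* and several others, degraded by nonsense-mediated decay during translation.

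Cultures came from 5 wild-type C57BL/6 mice (A to E) with GM-CSF at 40 ng/mL over 8 days, and RNA was sequenced after 4 hours of stimulation. Cells of each mouse received either DMSO (5% in the labels) or I-BET151 (iBET, an inhibitor of bromodomain proteins of the BET family) at 3.3 μM, and either ovalbumin alone (Ova) or ovalbumin complexed with anti-ovalbumin IgG (IC), which ligates Fcγ receptors. The controls were thus DMSO Ova and DMSO IC and the treated groups, labelled IBET Ova and IBET IC, are written iBET Ova and iBET IC here, with 5 libraries each, 1 from each mouse. The labels describe iBET and stimulus as given together, whereas the methods place iBET first, and the DMSO content of the iBET groups is not in the labels. Cultures were bulk samples of 1 strain, and the replicates behind the p values were 5 mice. The main test had group as its only factor and did not pair the libraries of a mouse. Fits with the mouse as a replicate block were an alternative.

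Total counts ran from 16447491 to 29245150 per library (median 21764663), of which the 10 RNAs took 0.188 to 1.32%. The dendritic cell markers fixed for the check were present in each group, with a summed level over 10 genes of 5086 to 10379 CPM (counts scaled to the TMM-adjusted library size), although *Cd209a* had 1 to 14 counts. The summed level of 8 macrophage markers was lower with iBET, at 1293 to 1682 CPM in iBET Ova against 1765 to 2413 in DMSO Ova. With IC the sum was 1351 to 1984 in iBET against 1867 to 2505 in DMSO, ranges that overlapped. Single markers are not given by group, and *Csf1r* and *Mrc1* were the most counted of the 8 (means of 18109 and 9391 counts). Neutrophil markers summed to 12.6 to 52.7 CPM over 8 genes and mast cell and basophil markers to 10.3 to 45.8 over 7. Markers of B cells (4 genes), T and NK cells (6) and erythroid cells (4) summed to at most 0.726, 1.51 and 6.62 CPM. In such bulk samples fewer cells of a type and less RNA per cell cannot be told apart, and the part of the macrophage markers in the results that follow was not tested.

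The sequences around the transcription start are shown because most host genes belong to the 5′ TOP class, whose RNAs begin within a run of pyrimidines. They are RefSeq starts on GRCm38.p6, each with 45 bases before the start and 30 from it on, for the 7 RNAs with an entry; *Neat1*, *Snhg4* and *Snhg6* were not matched. The windows lie at chr19:5802643-5802717 (*Malat1*, minus strand), chr1:161035121-161035195 (*Gas5*, plus), chr19:8723442-8723516 (*Snhg1*, plus), chr9:88522868-88522942 (*Snhg5*, minus), chr4:132308633-132308707 (*Snhg12*, plus), chr3:123508307-123508381 (*Snhg8*, minus) and chr4:132353657-132353731 (*Snhg3*, minus). For *Gas5* the downstream one of 2 listed starts is given, and the upstream one had neither TATAA nor TGACGT in its promoter and a pyrimidine run of 3 bases. Capitals mark the letters TATAA on either strand and the longest run of C and T within 20 bases of the start. The motifs and windows were chosen after the sequences were seen.
Malat1: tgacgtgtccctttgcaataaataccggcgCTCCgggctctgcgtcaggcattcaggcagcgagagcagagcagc
Gas5: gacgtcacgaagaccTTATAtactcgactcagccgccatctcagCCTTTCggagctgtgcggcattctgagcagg
Snhg1: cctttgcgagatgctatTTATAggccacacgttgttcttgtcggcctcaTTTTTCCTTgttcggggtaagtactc
Snhg5: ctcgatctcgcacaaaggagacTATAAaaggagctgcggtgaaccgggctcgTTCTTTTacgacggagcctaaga
Snhg12: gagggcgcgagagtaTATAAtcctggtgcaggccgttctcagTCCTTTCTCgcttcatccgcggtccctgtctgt
Snhg8: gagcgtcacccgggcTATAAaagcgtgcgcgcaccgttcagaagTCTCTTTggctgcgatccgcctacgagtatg
Snhg3: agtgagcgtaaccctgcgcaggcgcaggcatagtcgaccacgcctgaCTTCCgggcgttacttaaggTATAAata

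TATAA began 35 to 20 bases before the start in *Gas5* (downstream start only), *Snhg1*, *Snhg5*, *Snhg12* and *Snhg8*, against 3.86% of the 32851 promoters in the table. In *Snhg3* these letters were found only 22 bases past the start. The pyrimidine run was 9 bases long in *Snhg1* and *Snhg12* and 7 in *Snhg5* and *Snhg8*, lengths that 10.7% and 24.3% of all promoters reach. It was 6 bases in *Gas5* (37.5% of promoters), 5 in *Snhg3* (57.5%) and 4 in *Malat1* (78.6%). The run covered the listed start in *Snhg12*, *Snhg8* and *Gas5* and ended before it in *Malat1*. In *Snhg1*, *Snhg5* and *Snhg3* it began 4, 7 and 2 bases past the listed start. The marked runs therefore do not show that these last RNAs begin within pyrimidines. TGACGT, the core letters of a cAMP response element, occurred in the 300-base promoters of *Malat1* and *Gas5*, 2 times in each with both strands read, and in 7.51% of all promoters. In *Gas5* the 2 matches overlap on opposite strands. A match of letters shows no binding.

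What the hosts carry is shown by 3 of their snoRNAs, from GENCODE M21 on GRCm38. *Snord47* (chr1:161038082-161038158, plus strand) lies in *Gas5* and *Snord99* (chr4:132310691-132310764, plus) in *Snhg12*, and capitals in them mark the first TGATGA, box C, and the last CTGA, box D. *Snora24* (chr3:123507937-123508066, minus) lies in *Snhg8*, with its ACA box in capitals. Of 1507 annotated snoRNA transcripts of all classes, 21.2% hold such a TGATGA in their first 20 bases together with CTGA, and 46.8% hold ACA in their last 8 bases.
Snord47: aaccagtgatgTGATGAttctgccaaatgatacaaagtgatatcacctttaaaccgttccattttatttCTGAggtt
Snord99: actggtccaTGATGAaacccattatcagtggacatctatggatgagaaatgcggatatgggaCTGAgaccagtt
Snora24: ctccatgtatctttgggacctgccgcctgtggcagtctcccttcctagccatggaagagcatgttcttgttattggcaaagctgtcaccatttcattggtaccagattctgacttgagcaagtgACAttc

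Treatment with iBET raised 8 of the 10 RNAs with either stimulus, by between 1.20-fold (*Snhg12* with Ova) and 5.75-fold (*Neat1* with IC), and none was called lower. *Neat1* rose most, *Malat1* and *Snhg4* about doubled, and *Snhg1* and *Snhg5* did not pass the test. In DMSO-treated cells IC, against Ova, lowered *Snhg1*, *Snhg5* and *Snhg12* by 1.32-fold to 1.57-fold, and no member rose past the threshold with IC. *Snhg12* passed the test for both iBET and IC, in opposite directions. With the mouse as a replicate block, *Snhg5* also passed for both, higher with iBET in IC and lower with IC, and *Snhg6* passed for both as higher.

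The test was edgeR's quasi-likelihood test on the counts of all 20 libraries, with p values adjusted over all 12465 genes and a threshold of 0.05. iBET changed a large part of the transcriptome, so the counts stand beside the share of all tested genes that passed. With Ova, 8 of 10 members were higher with iBET and 0 lower, against 27.7% and 28.9% of all genes. With IC they were again 8 and 0, against 27.1% and 29% of all genes. The median log2 fold change of the 10 members was 0.41 with Ova and 0.55 with IC, whereas that of all tested genes was -0.003 and -0.005. None had an unadjusted p under 0.05 for a decrease, and DESeq2 gave the same counts of 8 and 0 in both. With library size as the only scaling, 7 were higher under each stimulus, since *Snhg3* with Ova (log2 0.32, adjusted p = 0.0716) and *Snhg6* with IC (0.19, 0.108) missed the threshold. With the mouse as a replicate block, 8 members were higher with Ova and 9 with IC, with *Snhg5* added, against 33.5% and 32.6% of all genes, and 0 were lower against 35.2% and 35.4%.

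For IC against Ova in DMSO-treated cells, 0 members were higher and 3 lower, against 9.59% and 10.7% of all genes, with 1 and 3 members at an unadjusted p under 0.05 and the same counts by DESeq2. The member median was -0.24 and that of all genes -0.02. In iBET-treated cells 0 were higher (0 at an unadjusted p under 0.05, 0 by DESeq2) and 1 was lower, *Snhg12*, against 5.19% and 6.63% of all genes, with a member median of -0.05 and an all-gene median of -0.01. The replicate block gave 1 higher and 3 lower in DMSO (18.3% and 19.8% of all genes) and 0 higher and 3 lower in iBET (14.2% and 14.7%). Scaling by library size alone left the members at 0 higher and 3 lower in DMSO and gave 0 and 3 in iBET. It moved the median of all genes from -0.02 to -0.13 in DMSO and from -0.01 to -0.12 in iBET. Genes called higher and lower then went from 1196 and 1335 to 582 and 2593 in DMSO and from 647 and 827 to 313 and 2030 in iBET.

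**Figure D1:**
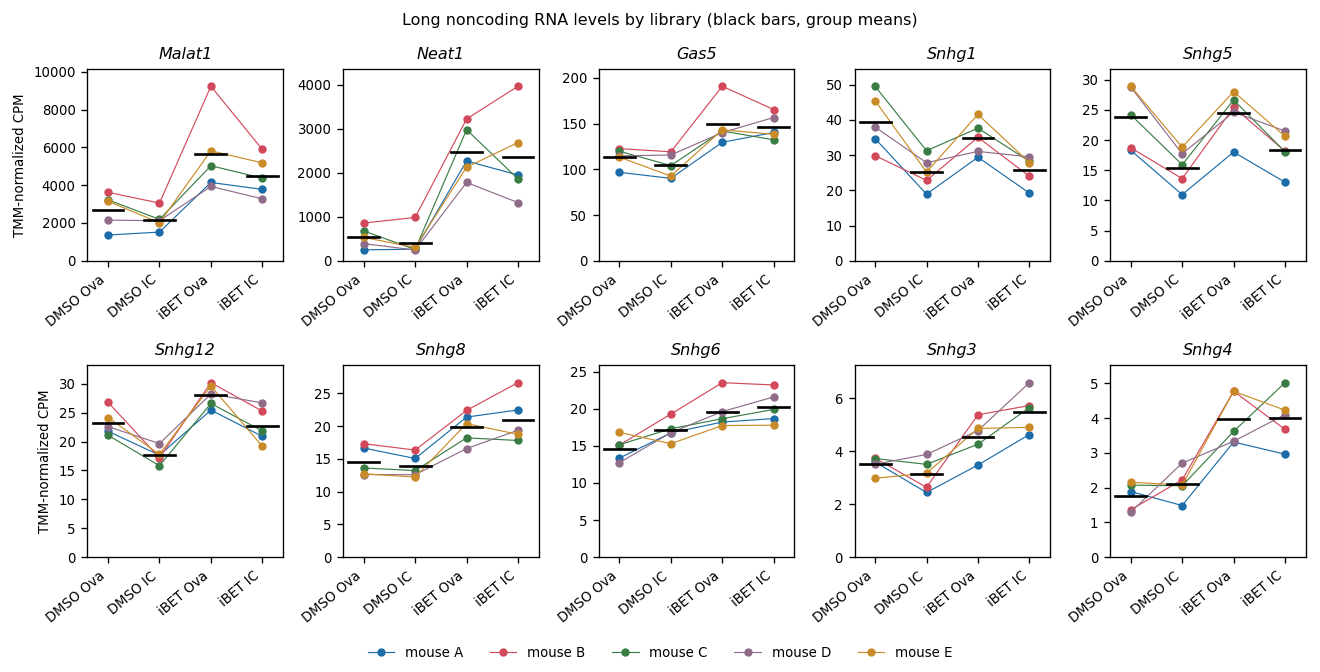
TMM-normalized CPM (linear axis from 0) of each RNA in the 20 libraries, by group, with 1 line for each mouse and a black bar at the group mean. *Neat1* lay between 244 and 984 in the 10 DMSO libraries and between 1323 and 3968 in the 10 iBET libraries, and *Snhg1* was lower with IC than with Ova in each mouse.

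*Neat1* (chr19:5824708-5845478, minus strand) is annotated as a lincRNA with a single unbroken exonic span of 20771 bases. *Neat1* was counted per gene, so transcripts of different length within this span are not told apart. Its levels in mice A to E were 248, 858, 678, 390.0 and 530.4 CPM in DMSO Ova and 263, 984, 256, 244 and 304 in DMSO IC. With iBET they were 2267, 3224, 2980.4, 1780.0 and 2127 with Ova and 1951, 3968, 1860.2, 1323 and 2688 with IC. The lowest iBET library exceeded the highest DMSO library, so the groups did not overlap under either stimulus. The rise was 4.58-fold with Ova (log2 2.19, SE 0.41, adjusted p = 0.00013) and 5.75-fold with IC (2.52, SE 0.41, 3.25e-05). Within single mice it ranged from 3.76-fold to 9.12-fold with Ova and from 4.03-fold to 8.84-fold with IC. In mouse B the DMSO levels were the highest of the 5 and the rise the smallest under both stimuli. IC against Ova gave -0.40 (SE 0.39, adjusted p = 0.525) in DMSO and -0.07 (SE 0.39, 0.938) in iBET. The first value rested on mouse B and mouse C, since it was -0.78 without B (adjusted p = 0.0505) and -0.16 without C (0.887).

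*Malat1* (chr19:5795690-5802672, minus strand) lies on the same strand of the same chromosome and was the most abundant of the 10. It measured 1361, 3619.7, 3223, 2149 and 3153 CPM in DMSO Ova and 4140.2, 9231, 5026, 3930.4 and 5816 in iBET Ova. With IC the levels were 1517, 3049, 2187, 2118 and 2006 in DMSO and 3775, 5886, 4370.0, 3276 and 5178 in iBET. The DMSO and iBET groups did not overlap, and the highest iBET library was that of mouse B under both stimuli. The increase was 2.08-fold with Ova (log2 1.06, SE 0.26, adjusted p = 0.00201) and 2.07-fold with IC (1.05, SE 0.26, 0.00223), in 5 of 5 mice each. IC against Ova gave -0.31 (SE 0.26, adjusted p = 0.445) in DMSO, with *Malat1* lower in 4 of 5 mice, and -0.32 (SE 0.26, 0.483) in iBET, lower in 5 of 5. In iBET this was -0.19 without mouse B.

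*Neat1* rose more than *Malat1* in each mouse. The difference between their log2 changes with iBET averaged 1.22 ± 0.41 (SD, n = 5) with Ova and 1.62 ± 0.33 with IC. A two-sided exact permutation test over the 5 mice (sign flips, 2 tests) gave p = 0.0625 for each, also after adjustment, the smallest value that 5 pairs allow. *Frmd8*, which lies 4224 bases from *Neat1* on the side away from *Malat1*, gave -0.05 (adjusted p = 0.504) with iBET in Ova and -0.04 (0.587) in IC. It was named for its position after the values had been seen. Of the 17 tested genes that flank the 10 RNAs, 4 were higher and 4 lower with iBET in Ova, and 5 and 5 in IC, against 27.7% and 28.9% of all genes in Ova and 27.1% and 29% in IC, shares close to those of the flanking genes.

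*Gas5* (chr1:161034422-161038539, plus strand) hosts a series of box C/D snoRNAs and is named after its rise in growth-arrested cells. It measured 96.7, 123, 119.8, 115 and 113 CPM in DMSO Ova and 129.6, 191, 142, 140.2 and 143 in iBET Ova. With IC it was 90.1, 119, 104, 116 and 92.7 in DMSO and 140.3, 165, 132, 157 and 138 in iBET. Here too no iBET library fell into the range of the DMSO libraries with the same stimulus. The rises, 1.31-fold with Ova (log2 0.40, SE 0.10, adjusted p = 0.00309) and 1.41-fold with IC (0.49, SE 0.10, 0.000494), were much smaller than those of *Neat1* but as regular, with 5 of 5 mice higher in each. IC against Ova gave -0.12 (SE 0.10, adjusted p = 0.464) in DMSO and -0.02 (SE 0.10, 0.917) in iBET.

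*Snhg1* (chr19:8723475-8726443, plus strand), host of *Snord22* and other box C/D snoRNAs, responded to IC. Its levels in mice A to E fell from 34.7, 29.9, 49.6, 38.0 and 45.5 CPM in DMSO Ova to 18.9, 22.8, 31.3, 27.9 and 25.2 in DMSO IC. In iBET they were 29.4, 35.1, 37.7, 31.1 and 41.6 with Ova and 19.2, 24.0, 28.3, 29.5 and 27.9 with IC. The ranges touched in both pairs of groups, because mice differed, but within each of the 5 mice the IC library was the lower one. The decrease was 1.57-fold in DMSO (log2 -0.65, SE 0.15, adjusted p = 0.00524). In iBET it was -0.44 (SE 0.15) with an adjusted p of 0.0649, and 0.00114 with the replicate block. The effect of iBET was -0.18 (SE 0.15, adjusted p = 0.328) with Ova and 0.03 (SE 0.15, 0.886) with IC.

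*Snhg5* (chr9:88521050-88522929, minus strand), host of the *Snord50* pair, took the same course. It went from 18.3, 18.7, 24.2, 28.8 and 28.9 CPM in DMSO Ova to 11.0, 13.6, 15.9, 17.7 and 18.8 in DMSO IC. In iBET it was 18.0, 25.4, 26.7, 24.6 and 28.0 with Ova and 13.0, 18.2, 18.1, 21.5 and 20.6 with IC. Mouse A was the lowest and mouse E the highest or second highest in each group, so that the groups overlapped although 5 of 5 mice were lower with IC. The decrease in DMSO was 1.54-fold (log2 -0.62, SE 0.17, adjusted p = 0.0139), and it missed the threshold without mouse C (-0.62, 0.082) or mouse D (-0.60, 0.0613). In iBET it was -0.43 (SE 0.17) with an adjusted p of 0.109, and 0.000267 with the replicate block. iBET gave 0.04 (SE 0.17, adjusted p = 0.843) with Ova. With IC it gave 0.24 (SE 0.17, adjusted p = 0.242), and 0.25 (SE 0.07, 0.00631) with the replicate block, 5 of 5 mice being higher.

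*Snhg12* (chr4:132308623-132311024, plus strand) carries *Snora16a*, *Snora44*, *Snora61* and *Snord99*, and so both snoRNA classes. It measured 21.8, 26.8, 21.1, 22.6 and 24.2 CPM in DMSO Ova and 17.7, 17.2, 15.8, 19.7 and 17.8 in DMSO IC, groups that did not overlap. In iBET it measured 25.4, 30.2, 26.6, 28.2 and 29.6 with Ova and 20.9, 25.3, 21.8, 26.7 and 19.2 with IC. iBET Ova was thus the highest group, DMSO IC the lowest, and DMSO Ova and iBET IC overlapped in between. With iBET it rose 1.20-fold in Ova (log2 0.27, SE 0.09, adjusted p = 0.0154) and 1.29-fold in IC (0.37, SE 0.09, 0.00172). With IC it fell 1.32-fold in DMSO (-0.40, SE 0.09, adjusted p = 0.00415) and 1.23-fold in iBET (-0.30, SE 0.09, 0.0352), in 5 of 5 mice each. The last call was lost without mouse A (-0.30, 0.0905), B (-0.31, 0.0614), C (-0.30, 0.117) or E (-0.22, 0.172).

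*Snhg6* (chr1:9941959-9944118, minus strand) carries *Snord87*. Its exons overlap those of the protein-coding gene *Mcmdc2* on the opposite strand, and the strand setting of the counting is not given in the sources used here. It measured 13.4, 15.1, 15.2, 12.7 and 16.8 CPM in DMSO Ova, and 18.2, 23.5, 18.7, 19.6 and 17.7 in iBET Ova, without overlap. With IC the values were 16.8, 19.3, 17.3, 16.8 and 15.3 in DMSO and 18.7, 23.2, 19.9, 21.6 and 17.8 in iBET, and the ranges overlapped. The rise with iBET was 1.34-fold with Ova (log2 0.42, SE 0.10, adjusted p = 0.00099) and 1.19-fold with IC (0.25, SE 0.10, 0.0346). The second call was lost without mouse A (0.27, 0.0552), C (0.27, 0.072) or D (0.21, 0.127), and with surrogate variables (0.20, 0.0766). IC in DMSO gave 0.22 (SE 0.10, adjusted p = 0.106), with 4 of 5 mice higher. This was 0.22 (SE 0.08, 0.0303) with the replicate block and 0.32 (0.0431) without mouse E, and *Snhg6* was the one member called higher with IC under the block. IC in iBET gave 0.05 (SE 0.10, adjusted p = 0.792).

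The remaining hosts carry box H/ACA snoRNAs. *Snhg8* (chr3:123507552-123508404, minus strand), host of *Snora24*, measured 16.6, 17.3, 13.6, 12.6 and 12.7 CPM in DMSO Ova and 21.4, 22.4, 18.2, 16.6 and 20.4 in iBET Ova. With IC it was 15.1, 16.3, 13.2, 12.6 and 12.2 in DMSO and 22.5, 26.6, 17.8, 19.4 and 18.7 in iBET. Mice A and B were the highest in all 4 groups, and each mouse rose with iBET. The rise was 1.36-fold with Ova (log2 0.44, SE 0.13, adjusted p = 0.00522) and 1.52-fold with IC (0.60, SE 0.12, 0.0004). IC gave -0.07 (SE 0.13, adjusted p = 0.751) in DMSO and 0.09 (SE 0.12, 0.718) in iBET.

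*Snhg3* (chr4:132348014-132353686, minus strand), host of the *Snora73* pair, and *Snhg4* were the least counted, at 46 to 151 and 23 to 114 reads per library, so their values are the least precise. *Snhg3* measured 3.59, 3.73, 3.72, 3.50 and 2.98 CPM in DMSO Ova and 3.47, 5.37, 4.26, 4.77 and 4.85 in iBET Ova, with mouse A slightly lower in iBET. With IC it was 2.44, 2.63, 3.50, 3.87 and 3.17 in DMSO and 4.63, 5.72, 5.64, 6.58 and 4.89 in iBET, without overlap. The rise with Ova was 1.30-fold (log2 0.37, SE 0.14, adjusted p = 0.0305), in 4 of 5 mice, and was not called without mouse B (0.36, 0.0739), C (0.43, 0.0529), D (0.35, 0.0727) or E (0.30, 0.155). The rise with IC was 1.75-fold (0.81, SE 0.14, adjusted p = 6.65e-05). IC against Ova gave -0.16 (SE 0.14, adjusted p = 0.473) in DMSO and 0.27 (SE 0.14, 0.22) in iBET. *Snhg3* shares exons on the same strand with the protein-coding gene *Rcc1*, which rose by 0.66 (SE 0.07, adjusted p = 3.25e-07) and 0.58 (SE 0.07, 1.6e-06) with iBET in Ova and IC, and how reads in both genes were counted is not given in the sources used here.

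*Snhg4*, the host of *Snora74a*, is placed by RefSeq at chr18:35553410-35558316. Its levels were 1.89, 1.36, 2.07, 1.30 and 2.15 CPM in DMSO Ova and 3.31, 4.77, 3.62, 3.33 and 4.77 in iBET Ova. With IC they were 1.48, 2.22, 2.05, 2.71 and 2.07 in DMSO and 2.96, 3.67, 5.02, 4.10 and 4.23 in iBET. The groups with and without iBET did not overlap under either stimulus. *Snhg4* rose 2.26-fold with Ova (log2 1.17, SE 0.19, adjusted p = 2.9e-05) and 1.88-fold with IC (0.91, SE 0.19, 0.000351), the largest change of a host gene in both. IC gave 0.27 (SE 0.19, adjusted p = 0.36) in DMSO, of which 0.07 was left without mouse D, and 0.01 (SE 0.18, 0.986) in iBET. The span of *Snhg4* overlaps the protein-coding gene *Gm28285*, which has no row in the count table. It also holds *Snora74a*, which had 257 to 2975 counts per library. How reads shared by these genes were counted is not given in the sources used here.

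**Figure D2:**
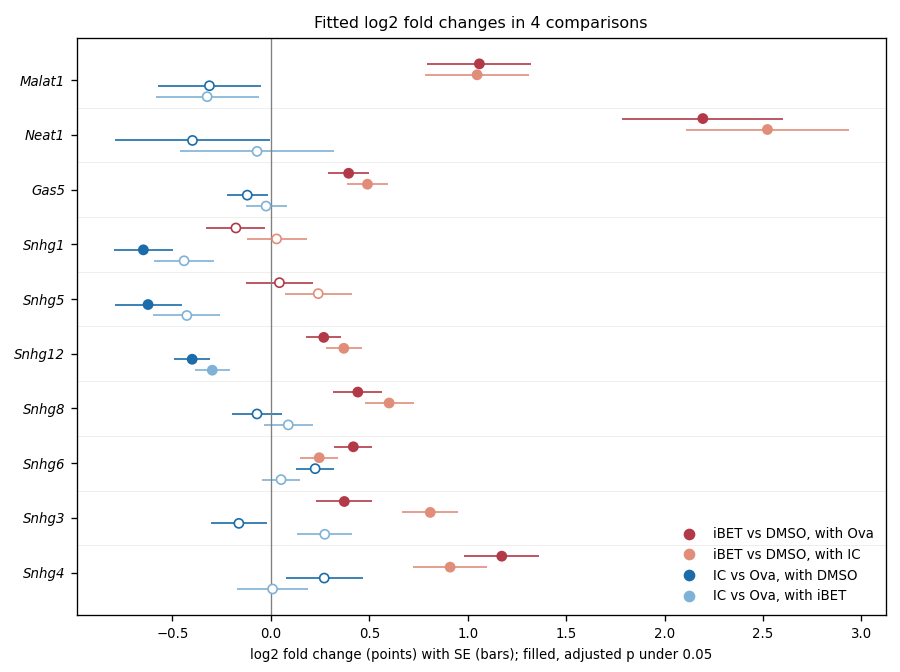
Fitted log2 fold changes (points) with their SE (bars) for the 10 RNAs in 4 comparisons, filled where the adjusted p of edgeR was under 0.05. The iBET comparisons are filled for all but *Snhg1* and *Snhg5*, and IC against Ova for *Snhg1*, *Snhg5* and *Snhg12* in DMSO and for *Snhg12* in iBET.

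Whether iBET acted differently with IC than with Ova was tested as an interaction. No member passed, against 0.0401% of all genes, and 1 member, *Snhg3*, had an unadjusted p under 0.05 (log2 0.44, SE 0.20). With the replicate block 0 members passed, against 0.818% of all genes, and DESeq2 gave 0. The 2 iBET comparisons share no libraries, and their effects had the same sign in all members but *Snhg1*, whose values were small in both. The IC and iBET comparisons share the DMSO Ova libraries, so their values are set side by side here and were not correlated.

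How the variation of each RNA over the 20 libraries divided between treatment, stimulus and mouse is given as a description. iBET accounted for 80.3% of the sum of squares of log2 CPM in *Neat1*, 77.4% in *Snhg4*, 66.0% in *Gas5*, 65.9% in *Snhg8*, 62.8% in *Snhg3*, 60.5% in *Malat1* and 52.3% in *Snhg6*. The median of all tested genes was 40.2%. In *Snhg1* and *Snhg5* the share was 0.788% and 4.04%, and the stimulus took 56.5% and 47.3%, against 6.05% for the median gene. *Snhg12* stood between them, with 34.3% for iBET and 42.8% for the stimulus. The mouse took 41.4% in *Snhg5*, 29.6% in *Snhg1*, 28.6% in *Snhg8* and 28.5% in *Malat1*, and 6.19% in *Snhg4*.

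**Figure D3:**
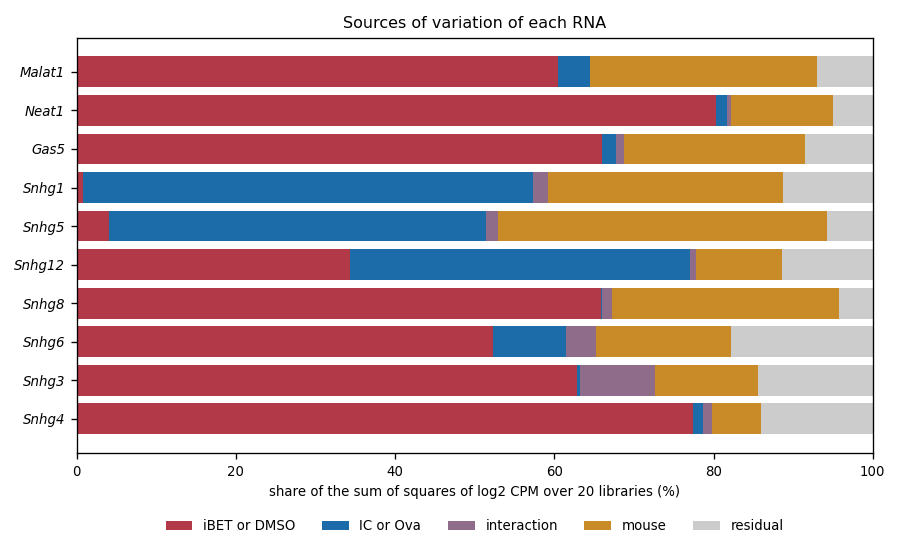
Share (%) of the sum of squares of log2 CPM over 20 libraries taken by iBET or DMSO, IC or Ova, their interaction, the mouse and the residual, for each RNA. iBET takes 80.3% in *Neat1* and 0.788% in *Snhg1*, where the stimulus takes 56.5%.

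Levels were compared between genes as CPM divided by the annotated exon length in kilobases (RPKM), for the 9 RNAs in GENCODE M21. *Neat1* was divided by its whole span, whichever of its transcripts were present. The exon length included retained introns, so the levels of spliced RNAs are understated where these cover most of the gene, as in *Snhg1*, *Snhg12*, *Snhg5*, *Snhg8* and *Gas5*, and their order against *Neat1* and *Malat1* depends on that length. In DMSO Ova, *Malat1* had 387 ± 132 RPKM (SD, n = 5), followed by *Gas5* at 30.2 ± 2.68 and *Neat1* at 26.0 ± 11.5, which overlapped. *Snhg8* (17.1 ± 2.62), *Snhg5* (13.8 ± 2.99), *Snhg1* (13.3 ± 2.69) and *Snhg6* (12.8 ± 1.41) overlapped with their neighbours. *Snhg12* had 9.69 ± 0.95 and *Snhg3*, apart from the rest, 3.55 ± 0.32. In iBET Ova *Neat1*, at 119 ± 29.1, was above *Gas5* (39.7 ± 6.37) in each mouse, and *Malat1*, at 806 ± 308, remained first.

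**Figure D4:**
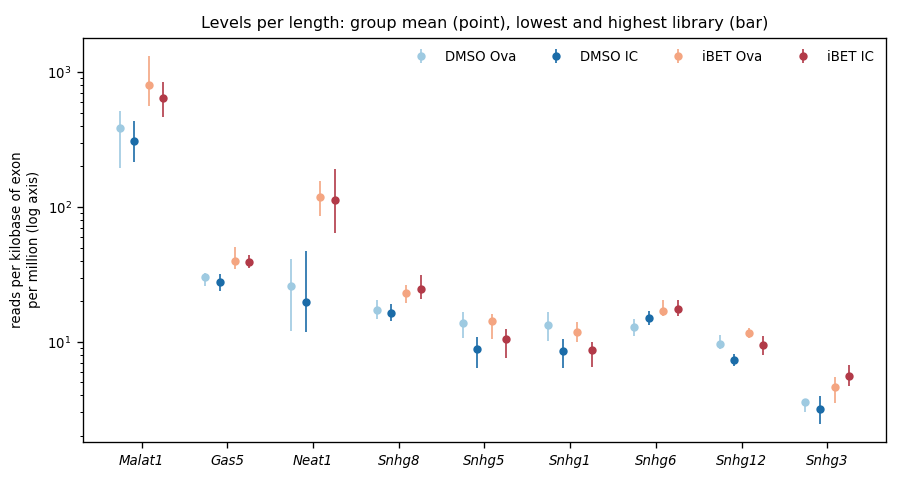
RPKM (log axis) of 9 RNAs in the 4 groups, with points at the mean of 5 libraries and bars from the lowest to the highest. *Malat1* is highest in each group, and *Neat1* moves from 26.0 in DMSO Ova to 119 in iBET Ova.

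Pairs of members were compared by the Pearson correlation of log2 CPM over the 20 libraries, again as a description, since the libraries share treatments and mice. *Malat1*, *Neat1* and *Gas5* went together, with r of 0.92 for *Malat1* and *Neat1*, 0.91 for *Malat1* and *Gas5* and 0.88 for *Neat1* and *Gas5*. After the group means were removed, these were 0.81, 0.75 and 0.55. *Snhg1* and *Snhg5* formed the other pair, with r of 0.86, and 0.79 within groups. Between the 2 sets, *Snhg1* had r of -0.0079 with *Neat1*, 0.18 with *Malat1* and 0.11 with *Gas5*, and *Snhg5* had 0.25, 0.40 and 0.38. Within groups *Snhg8* went against *Snhg1* (-0.54) and *Snhg5* (-0.64).

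**Figure D5:**
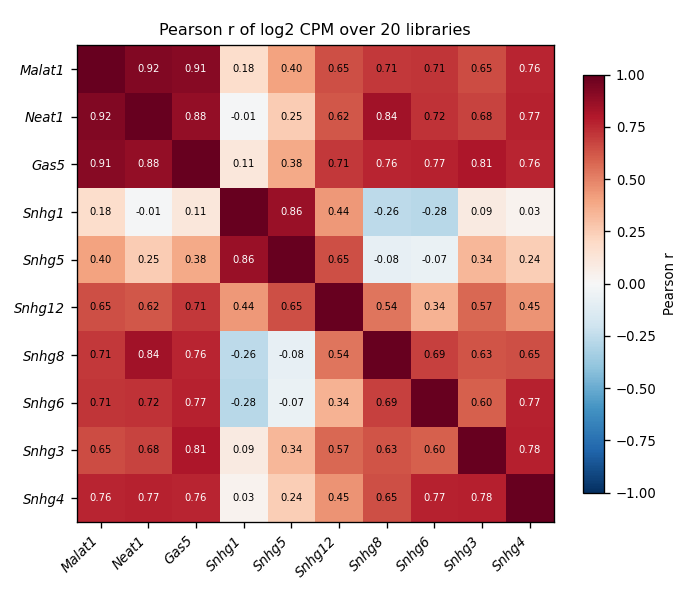
Pearson r of log2 CPM over 20 libraries for each pair of RNAs, on a colour scale from -1 to 1. *Malat1*, *Neat1* and *Gas5* have r of 0.88 to 0.92 with each other, and *Snhg1* has r of 0.86 with *Snhg5* and -0.28 to 0.44 with the others.

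Other genes with the most similar course over the 20 libraries were sought among those with a mean of at least 100 counts. *Malat1* was closest to *Prpf39*, a splicing factor of the U1 particle, *Trim39* and *Gpatch2* (r of 0.95, 0.94 and 0.93). *Neat1* was closest to *Zcchc6*, an RNA uridylyltransferase, *Syne3*, a protein of the nuclear envelope, and *Nxf1*, the mRNA export receptor (each 0.95). *Gas5* was closest to the speckle kinase *Prpf4b*, *Cspp1* and *Mier3* (0.93, 0.92 and 0.92). For *Snhg12* they were *Srsf11*, a splicing factor, *Pcmtd2* and *Tcp11l2* (0.93, 0.91 and 0.90).

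*Snhg1* was closest to *Cep68*, *Eml6* and *Sft2d2* (0.92, 0.90 and 0.89) and *Snhg5* to *Lbh*, *Sft2d2* and *Parn* (0.94, 0.93 and 0.90), the last a deadenylase that matures H/ACA RNAs. *Sft2d2* thus stood in both sets. *Snhg8* had *Pfkfb2*, *Glce* and *Polh* (0.96, 0.95 and 0.95), *Snhg6* had *Pkn2*, *Ugcg* and *Fam178a* (0.91, 0.89 and 0.88), and *Snhg3* had *Ing1*, *Aplp2* and *Anapc7* (0.91, 0.90 and 0.90). *Snhg4* was closest to *Mars2*, to nucleolin (*Ncl*), a protein of the nucleolus, and to *Ppat*, of purine synthesis (each 0.93). Within groups these values were lower, between 0.57 and 0.90.

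The snoRNAs inside the hosts were counted in rows of their own for 9 of the 29 listed, and 8 were tested. With iBET in Ova 0 passed in either direction, against 27.7% higher and 28.9% lower of all genes. The median log2 fold change was -0.004, 0 had an unadjusted p under 0.05, and DESeq2 gave 0. With IC, *Snora24* of *Snhg8* was higher with iBET (log2 1.16, adjusted p = 0.000975), as *Snhg8* itself was, and the median of the 8 was 0.63. *Snora24* was the 1 call among the 8, against 27.1% higher and 29% lower of all genes. *Snord22* of *Snhg1* gave 0.91 (adjusted p = 0.0569, and 0.0254 with the replicate block) in the same comparison, in which *Snhg1* gave 0.03. IC changed 0 of 8 in DMSO and 0 in iBET, with 1 and 0 at an unadjusted p under 0.05 and 0 by DESeq2 in both. Of all genes, 9.59% were higher and 10.7% lower with IC in DMSO, and 5.19% and 6.63% in iBET. *Snora24* lies within the annotated exon of *Snhg8*, and how reads shared by a snoRNA and its host were counted is not given in the sources used here. Counts ran from 11 to 64 per library for *Snora24*, from 6 to 154 for *Snord47* and from 257 to 2975 for *Snora74a*.

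Of 14 further noncoding snoRNA hosts, 7 were tested. With iBET in Ova 1 was higher and 0 lower, *2410006H16Rik* (72.6 ± 5.73 CPM in DMSO Ova and 83.8 ± 5.87 in iBET Ova, SD, n = 5, log2 0.21, adjusted p = 0.0327), with the same counts by DESeq2 and 0 and 0 with library size as the scaling. The list counts that follow are to be read against the shares of all tested genes, which were 27.7% higher and 28.9% lower with iBET in Ova and 9.59% and 10.7% with IC in DMSO. Names given here for lists beyond the rule for named genes were chosen after their values were seen. With IC in DMSO *Snhg11* fell (0.686 ± 0.382 to 0.198 ± 0.135 CPM, log2 -1.68, adjusted p = 0.0383) and none rose. *Snhg11* was low in both groups, and its call was lost in 8 of 15 alternatives. Among 11 tested noncoding RNAs of the nucleus other than *Malat1* and *Neat1*, 1 was higher, *2900097C17Rik* (0.21, adjusted p = 0.0272, 0 with library size as the scaling), and 2 lower with iBET in Ova. The decreases were in *Tug1* (85.8 ± 4.05 to 64.0 ± 15.2 CPM, log2 -0.42, adjusted p = 0.00399) and *Pvt1* (9.62 ± 2.53 to 6.88 ± 0.94, -0.48, 0.00825), a transcript beside *Myc*. The medians of the lists were 0.10 and 0.06.

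The proteins of the bodies that *Malat1* and *Neat1* belong to were followed as lists. Of 20 nuclear speckle proteins 11 were higher and 3 lower with iBET in Ova (27.7% and 28.9% of all genes), with a median log2 fold change of 0.31. Among them were the SR splicing factors *Srsf2* (77.2 ± 6.06 to 151 ± 18.2 CPM, log2 0.97, adjusted p = 1.09e-07), *Srsf7* (0.81, 2.91e-07) and *Srsf6* (0.80, 2.09e-09). Those lower were *Sf3b1* (-0.53, 2.2e-07), *Srsf3* (-0.37, 0.000168) and *Srsf1* (-0.22, 0.0109). With IC in DMSO 1 was higher, *Srsf3* (0.26, 0.0112, 0 with library size as the scaling), and 5 lower (9.59% and 10.7% of all genes), the largest decreases being in *Srsf6* (91.0 ± 7.70 to 62.0 ± 3.70 CPM, -0.55, adjusted p = 6.01e-06), *Srsf5* (-0.54, 0.000352) and *Srsf11* (-0.53, 0.000422). The others were *Sf3b1* (-0.46, 2.16e-05) and *U2af2* (-0.24, 0.0424). *Srsf6* therefore moved up with iBET and down with IC, as *Snhg12* did.

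Of 18 paraspeckle proteins 8 were higher and 2 lower with iBET in Ova (27.7% and 28.9% of all genes), with a median of 0.10. Among the increases were *Rbm14* (30.1 ± 4.42 to 81.4 ± 7.00 CPM, log2 1.43, adjusted p = 2.32e-10) and *Taf15* (0.86, 0.000607), both RNA-binding proteins found in paraspeckles. *Tardbp* (-0.85, 4.23e-06) and *Nono* (-0.20, 0.00535), a core paraspeckle protein, were lower. With IC in DMSO 5 were higher and 1 lower (9.59% and 10.7% of all genes), led by *Sfpq* (116 ± 14.8 to 178 ± 17.2 CPM, 0.63, adjusted p = 8.31e-05), a core paraspeckle protein, *Ewsr1* (0.52, 0.000498) and *Hnrnpa1* (0.51, 0.0452), whereas *Cpsf6* was lower (-0.40, 0.000475). With library size alone as the scaling the IC counts became 3 and 2, and the list's median went from 0.01 to -0.10. The call of *Hnrnpa1* with IC was lost in 9 of 16 alternatives.

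For snoRNP proteins, which bind snoRNAs, 6 of 19 were higher and 4 lower with iBET in Ova (median 0.14), near the 27.7% and 28.9% of all genes. *Nop56*, a core box C/D protein (53.6 ± 8.26 to 104 ± 9.72 CPM, log2 0.96, adjusted p = 3.48e-08), and *Nop10*, a core H/ACA protein (0.94, 1.26e-08), rose, whereas *Gar1*, also of the H/ACA particle, fell (-0.92, 0.00552). Also lower were *Naf1* (-0.47, 0.00198), *Ruvbl1* (-0.45, 0.000124) and the methyltransferase fibrillarin, *Fbl* (-0.30, 0.0179). With iBET in IC the counts were 5 and 6, and the median was -0.07. With IC in DMSO 5 were higher and 1 lower (9.59% and 10.7% of all genes), with the largest values in *Nolc1* (0.40, adjusted p = 0.015), *Rrp9* (0.39, 0.0319) and *Nhp2* (0.37, 0.00365), and *Rpap3* was the lower one (-0.25, 0.0413). Scaling by library size alone turned these counts into 2 and 2.

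Of 17 factors of nonsense-mediated decay, the pathway that degrades spliced *Gas5*, 5 were higher and 3 lower with iBET in Ova (median 0.15), near the 27.7% and 28.9% of all genes. *Magohb*, of the exon junction complex, fell (5.42 ± 1.00 to 1.89 ± 0.71 CPM, log2 -1.53, adjusted p = 2.21e-06), and *Upf3a* (0.41, 0.000238) and *Casc3* (0.38, 0.0041) rose. *Smg9* (-0.37, 0.00127) and *Pnrc2* (-0.33, 0.00309) were also lower, and *Smg6* (0.31, 0.00966), *Rnps1* (0.23, 0.00219) and *Magoh* (0.20, 0.0493) higher. With IC in DMSO 2 were higher and 1 lower (9.59% and 10.7% of all genes), *Smg8* (0.29, adjusted p = 0.00335), *Rnps1* (0.22, 0.0114) and *Smg6* (-0.28, 0.0499). With library size as the scaling they became 1 and 4. The call of *Smg6* with IC was lost in 8 of 16 alternatives.

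Several host RNAs share the 5′ TOP start with mRNAs of the translation machinery, of which 19 outside the ribosomal proteins were tested. With iBET in Ova 8 were higher and 0 lower (3 and 3 with library size as the scaling), against 27.7% and 28.9% of all genes, with a median of 0.14. They included the elongation factors *Eef1d* (0.61, adjusted p = 2.63e-08) and *Eef2* (0.34, 0.00016) and nucleophosmin, *Npm1* (0.34, 0.000387). With IC in DMSO 2 were higher, *Hnrnpa1* and *Eef1g* (0.21, adjusted p = 0.00895), and 0 lower (0 and 0 with library size as the scaling), against 9.59% and 10.7% of all genes, with a median of 0.14. *Snhg1*, *Snhg5* and *Snhg12*, which fell with IC in DMSO, thus had the opposite sign to the median of this list. The marked pyrimidine runs of *Snhg1* and *Snhg5* lie past their listed starts, so their membership of the 5′ TOP class was not shown here. The run of *Snhg12* covered its listed start.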

How the data were processed

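The data were bulk RNA-seq counts of 20 BMDC libraries, made from 5 mice under 4 conditions. As the methods and the submitters' processing notes state, the authors demultiplexed the reads with CASAVA, trimmed them with Trim Galore, aligned them to mm10 with HISAT2 and counted them with featureCounts. Versions, annotation and strand setting are not given in the sources used here. The authors deposited raw counts per gene, and as a second table signal values, which are those counts over DESeq2's size factors and were used only as an alternative. Genes were kept by filterByExpr, scaled with TMM and tested with edgeR 4.0.16 in R 4.3.3, with group as the only factor. SE was the log2 fold change divided by the root of F. Log2 CPM used a prior count of 2. Alternatives used DESeq2 1.42.0, limma 3.58.1 (pseudocount 1) and sva 3.50.0. Self-tests were run on simulated data. Libraries of the same mouse, which the labels identify, deviated together (mean correlation 0.524 over 30 pairs, lowest 0.307, against -0.127 over 120 pairs of different mice), so the mouse pairs the samples. Libraries of a group differed by more than counting error (chi-square per degree of freedom at least 13.2 in 40 pairs).

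Members and lists were chosen with earlier results of these data known. Named are the 10 members, for each the 3 genes of at least 100 mean counts with the highest r, and from each list the 3 largest changes with iBET in Ova and with IC in DMSO among genes past the threshold and changed alike in 5 of 5 mice. A gene picked in this way may be left unreported here.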

Additional observations from a re-analysis of the deposited data

Results flagged for a closer look

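In 40 groups of 5 libraries (10 RNAs in 4 groups), 2 held a library set apart from the other 4, where the gap to the nearest divided by the whole range exceeded 0.71, and chance gives about 1 in 20 groups. *Neat1* in DMSO IC was 984 CPM in mouse B and 244 to 304 in the others, and leaving out this mouse changed IC against Ova in DMSO from -0.40 to -0.78. *Gas5* in iBET Ova was 191 CPM in mouse B and 129.6 to 143 in the others. Mouse B was also the highest for *Malat1* in all 4 groups.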

How the results depend on the processing

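Over 50 values (10 members in 5 comparisons), 790 alternatives gave 719 with the same direction and side of the threshold, 30 called values that lost the call, 17 that gained it, and 24 with another sign, none of them called. With mice A and B only, calls went to 4 (iBET in Ova), 5 (iBET in IC), 0 (IC in DMSO) and 0 (IC in iBET). For IC in iBET, 1 call became 3 with the replicate block, 2 with DESeq2, 3 with DESeq2 and the block, 3 with library size only, 3 with surrogate variables, 0 without a filter and 0 with the compared groups only. Leaving out 1 mouse gave 7 to 8 calls for iBET in Ova, 7 to 8 in IC, 2 to 4 for IC in DMSO and 0 to 1 in iBET. Beyond *Snhg5* with iBET in IC, *Snhg6* with IC in DMSO, and *Snhg1* and *Snhg5* with IC in iBET, the block changed no call of a member.

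Signs turned for these values. Library size only gave -0.0088 (*Snhg5*, iBET in Ova), -0.022 (*Snhg1*, iBET in IC), and with IC in iBET -0.097 (*Snhg4*), -0.057 (*Snhg6*) and -0.020 (*Snhg8*). Surrogate variables gave, with IC in iBET, -0.021 (*Snhg4*), 0.030 (*Gas5*) and 0.115 (*Neat1*). Mice A and B only gave 0.17 (*Neat1*, IC in DMSO), -0.26 (*Snhg4*, IC in iBET), 0.12 (*Neat1*, IC in iBET) and -0.047 (*Neat1*, interaction). Mice C, D and E only gave 0.062 (*Snhg3*, IC in DMSO), 0.0035 (*Gas5*, IC in iBET) and 0.21 (*Malat1*, interaction), and with them *Neat1* fell by 0.97 on the log2 scale with IC in DMSO (adjusted p = 0.0132 in edgeR). Leaving out 1 mouse gave -0.0082 (B) to 0.12 for *Snhg5* (iBET in Ova), -0.00082 (E) to 0.094 for *Snhg1* (iBET in IC), and with IC in iBET -0.11 (C) to 0.11 for *Snhg4*, -0.071 to 0.029 (B) for *Gas5* and -0.23 to 0.085 (C) for *Neat1*. For *Snhg4* the sign also turned without D (-0.058). In the interaction *Malat1* gave -0.14 to 0.14 (B), with a turn also without A or D. The cause was not tested. Of 32 values of list genes, added after the data were seen, none turned sign, while 449 alternatives kept and 62 lost the call. *Snhg3* and *Snhg4*, with at most 151 and 114 reads per library, are limited most by depth.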
